A study of Meleagris gallopavo with 12 samples.

Results

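The transcripts described here are those of POMC, AVP and UTS2, which encode precursors of peptide hormones, and of CPE, a carboxypeptidase that processes such precursors. They were found as the chicken oligonucleotide probes whose array description ends in 1 of these symbols, and each gene had 1 probe. The members are 4 of the 5536 genes that carry a symbol on the array, and all 4 were among the 5182 genes with a tested probe. The probes were RIGG19221 for POMC, RIGG17776 for AVP, RIGG10018 for UTS2 and RIGG15171 for CPE. The symbols of 3 of the 4 are also listed for turkey in RefSeq, the exception being AVP.

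RNA came from the premammillary nucleus, a dopamine and melatonin cell group of the mediobasal hypothalamus, of adult turkey hens. Short-day photosensitive hens (SDPS) lived on 6 h of light and 18 h of dark, and long-day photosensitive hens (LDPS) had spent 10 days on 16 h of light and 8 h of dark. Long-day photorefractory hens (LDPR) had been held on long days until they had laid and moulted, with light hours that the labels do not state. The 4 samples of a group each pooled 6 hens, and every one of the 6 arrays carried a pair of pools from different groups in opposite dyes, so that each pair of groups met on 2 arrays.

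POMC is cut into several peptides, among them adrenocorticotropic hormone, melanocyte-stimulating hormones and beta-endorphin, and is made in pituitary corticotrophs and in arcuate neurons of the hypothalamus. In birds the product of the gene called AVP on the array is arginine vasotocin, made in large neurosecretory neurons and known for its roles in water balance and egg laying. UTS2 encodes urotensin II, a small cyclic peptide first isolated from the tail neurosecretory organ of fish and related to somatostatin. CPE trims the basic residues that prohormone convertases leave at the end of a peptide, and it resides in the dense-core granules that store neuropeptides.

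Hybridisation signal of all 4 members stood above that of empty spots in 12 of 12 pools. The spot amplitude, divided by the 95th percentile of the empty spots in the same channel, ran from 18.7 to 42.7 for POMC and from 60.4 to 187 for AVP. It ran from 5.67 to 63.8 for UTS2 and from 31.7 to 120 for CPE. These ratios place each probe against its own background; because turkey RNA met chicken sequence, levels of different probes were not set against each other. In LDPR pool 2, 79.3% of all probes were above empty spots, against 91.6% to 96.6% in the other pools. The 95th percentile of empty spots was highest in its channel, at 62.8 against 20.4 to 51.1 in the others. Its median amplitude was 158, within the 92.7 to 277 of all pools. The dopamine and storage genes TH and SLC18A2 and the photopigment gene OPN4, which are known for this nucleus, were above empty spots in 12 of 12 pools. Most probes were above empty spots in every pool, so this does not identify the tissue. Because these are bulk samples, fewer cells that make a transcript and less transcript per cell cannot be told apart. Single hens were not measured, and the p-values rest on variation among pools and arrays.

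None of the members passed at an adjusted p under 0.05 in any of the 3 comparisons. For LDPS against SDPS, 0 of 4 members passed, as did 0% of all 18012 tested probes, and CPE alone had an unadjusted p under 0.05, which 4.33% of all probes had (3.02% higher and 1.31% lower in LDPS, CPE being lower). For LDPR against LDPS, 0 of 4 passed against 0.0167% of all probes, and UTS2 and CPE had an unadjusted p under 0.05, which 13.9% of all probes had. CPE was among the 4.96% that were higher in LDPR and UTS2 among the 8.98% that were lower. For LDPR against SDPS, 0 of 4 passed against 0% of all probes, and UTS2 alone had an unadjusted p under 0.05, which 9.37% of all probes had, 5.89% being lower in LDPR as UTS2 was. These tests are moderated two-sided limma tests over all 6 arrays, with Benjamini-Hochberg adjustment over all tested probes. Between any 2 groups the pools of 0 of 4 members were without overlap, as were those of 0.985%, 2.15% and 0.979% of the 16748 probes compared in this way, in the order above. The value farthest from 0 was that of UTS2 in LDPR against SDPS (log2 fold change -0.80), a size reached by 0.0999% of probes.

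**Figure D1:**
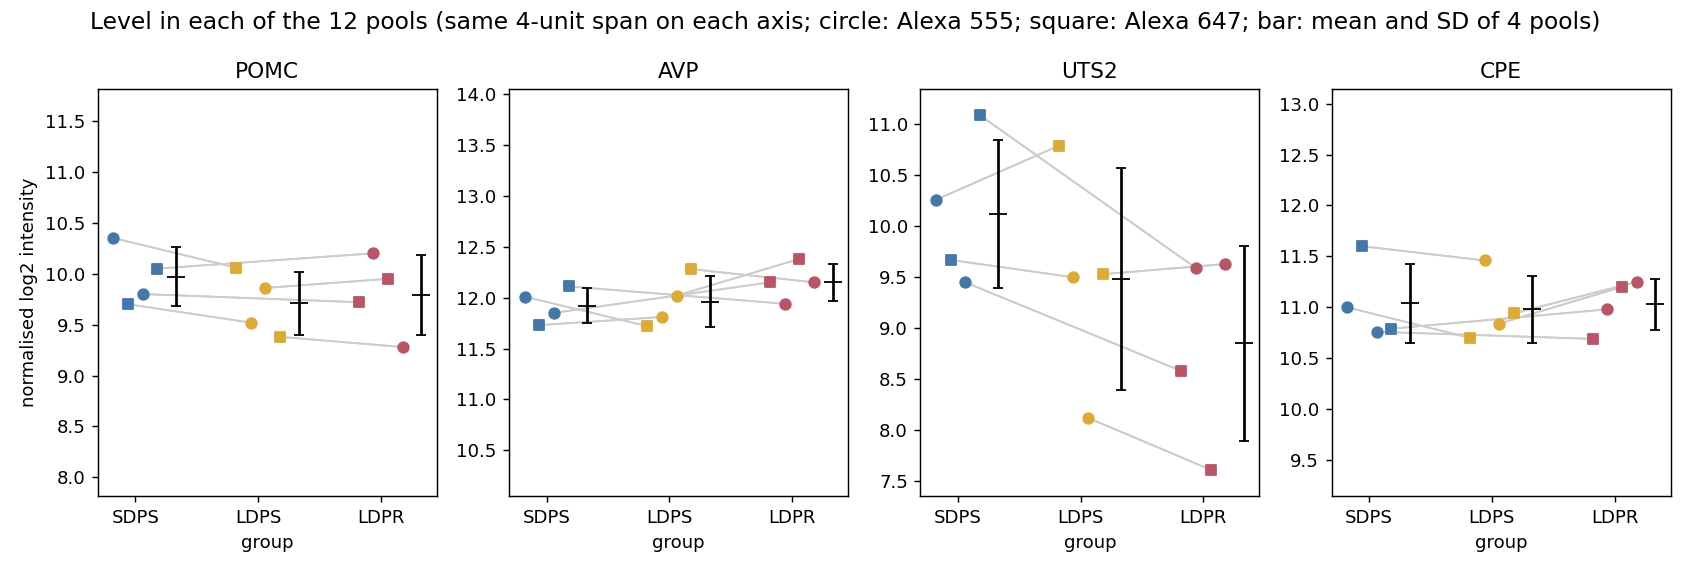
Normalised log2 intensity (vertical axis) of POMC, AVP, UTS2 and CPE in the 4 pools of SDPS, LDPS and LDPR (horizontal axis). Each point is a pool, circles carry Alexa 555 and squares Alexa 647, grey lines join the pools that shared an array, and bars give the mean and SD of 4 pools. UTS2 spans 3.48 log2 units over the 12 pools, against 0.66 to 1.07 for the other members, and all groups overlap.

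For POMC, the normalised log2 intensities of SDPS pools 1 to 4 were 10.35, 9.70, 9.80 and 10.05. The LDPS pools were at 10.06, 9.52, 9.86 and 9.38, and the LDPR pools at 9.72, 10.20, 9.95 and 9.28. The highest value was in SDPS pool 1 and the lowest in LDPR pool 4, and the 3 groups overlapped. Group means were 9.97 ± 0.29 in SDPS, 9.71 ± 0.31 in LDPS and 9.79 ± 0.39 in LDPR (log2 intensity, SD, n = 4 each).

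The fitted log2 fold change of POMC was -0.14 for LDPS against SDPS (SE 0.11, 95% interval -0.39 to 0.10, limma adjusted p = 1). It was 0.09 for LDPR against LDPS (interval -0.16 to 0.33, limma adjusted p = 0.748) and -0.05 for LDPR against SDPS (interval -0.30 to 0.19, limma adjusted p = 0.899). As fold changes the outer bounds of these intervals are 0.766 and 1.26, so a larger POMC difference lies outside them. Both direct arrays put LDPS below SDPS, at -0.29 and -0.17. The other 2 pairs of groups each had 1 direct array on either side of 0. For LDPS against SDPS the direct mean was -0.23, while the arrays that link these groups through LDPR gave 0.04. Direct mean and indirect value were 0.00 and 0.27 for LDPR against LDPS, and 0.04 and -0.24 for LDPR against SDPS. The residual SD of POMC was 0.179, at percentile 49.7 of all tested probes, so its precision was that of a typical probe. With 1 array left out, the POMC value ran from -0.21 to -0.06 for LDPS against SDPS and from 0.03 to 0.23 for LDPR against LDPS.

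Receptors of POMC peptides were measured in part. MC2R, the receptor for adrenocorticotropic hormone, had log2 fold changes of 0.06, -0.12 and -0.06 for LDPS against SDPS, LDPR against LDPS and LDPR against SDPS. MC4R, the melanocortin receptor known for appetite control in the brain, had 0.08, 0.07 and 0.15, and MC5R had -0.17, 0.07 and -0.10. Of the 22 other genes listed for the melanocortin and opioid system, 5 had a tested probe. In each comparison 0 of these 5 had an unadjusted p under 0.05, and their median log2 fold changes were 0.04, 0.07 and 0.09 beside a median of -0.01 for all tested probes in each comparison. MC1R, MC3R, AGRP and CARTPT are not analysed here.

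The other main source of POMC transcript near this nucleus is the pituitary, so pituitary markers are given beside it. Of 10 pituitary markers, 4 were measured in all pools (PRL, GH, FSHB and PITX1). PRL and FSHB were each above empty spots in 11 of 12 pools, GH and PITX1 in 12 of 12. The mean log2 level of the 4 lay between 7.60 and 7.75 in SDPS, between 7.62 and 7.97 in LDPS and between 7.29 and 7.52 in LDPR. The LDPR pools were below all pools of the other groups in this mean, which carries differences between arrays. Among single probes, 2.15% had no overlap of pools for LDPR against LDPS and 0.979% for LDPR against SDPS, in either direction. The share for a mean of 4 probes was not computed. In these comparisons 0 of the 4 markers passed after adjustment (smallest limma adjusted p = 0.14 and 0.578). For LDPR against LDPS, 2 of the 4 (FSHB and PITX1) were lower at an unadjusted p under 0.05, where 8.98% of all probes were. For LDPR against SDPS 0 of the 4 had such a p. The part of pituitary tissue in the POMC values was not tested.

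For AVP, the SDPS pools were at 12.01, 11.73, 11.85 and 12.11 (log2 intensity). The LDPS pools were at 11.72, 11.81, 12.02 and 12.28, and the LDPR pools at 12.15, 11.94, 12.38 and 12.15. The highest value was in LDPR pool 3 and the lowest in LDPS pool 1, and the groups overlapped. Means were 11.92 ± 0.17 in SDPS, 11.96 ± 0.25 in LDPS and 12.15 ± 0.18 in LDPR (SD, n = 4 each).

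The fitted log2 fold change of AVP was -0.08 for LDPS against SDPS (SE 0.13, interval -0.38 to 0.21, limma adjusted p = 1). For LDPR against LDPS it was 0.13 (interval -0.16 to 0.42, limma adjusted p = 0.679), and for LDPR against SDPS it was 0.05 (interval -0.25 to 0.34, limma adjusted p = 0.925). In each comparison the direct arrays lay on opposite sides of 0, at -0.29 and 0.08, at 0.36 and -0.13, and at 0.31 and -0.18. The group means of levels, which carry differences between arrays, had LDPS above SDPS, the opposite order to the fit. All 3 fitted differences were within the spread between arrays. With 1 array left out, the AVP value for LDPR against LDPS ran from 0.03 to 0.24. AVP covered the narrowest range of the members over the 12 pools, 0.66 log2 units. Its spot had a QUALITY entry of 0 on 3 of the 6 arrays, a mark whose meaning is not stated in the files. In the authors' deposited table AVP has no value for the 6 pools on these arrays, and the AVP values above rest on all 6 arrays.

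Receptors of the vasotocin family had fitted values between -0.12 and 0.12, with SEs from 0.11 to 0.17. AVPR1A had log2 fold changes of 0.03, 0.05 and 0.08 for LDPS against SDPS, LDPR against LDPS and LDPR against SDPS. AVPR1B, known as the pituitary receptor of the family, had 0.00, -0.12 and -0.12, and AVPR2, known from the mammalian kidney, had -0.02, 0.05 and 0.02. OXTR had 0.12, -0.05 and 0.07, and OXT, whose avian peptide is mesotocin, had 0.07, 0.03 and 0.10. Of 18 other genes listed for vasotocin and the stress axis, 11 had a tested probe, and their medians were 0.03, -0.03 and 0.01. Among these 11, only the corticotropin-releasing hormone receptor gene CRHR2 had an unadjusted p under 0.05, at -0.26 for LDPR against SDPS (limma adjusted p = 0.534). In that comparison 9.37% of all probes had such a p. After adjustment 0 of 11 passed in each comparison.

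UTS2 varied most. The SDPS pools were at 10.26, 9.67, 9.45 and 11.09 (log2 intensity), and the LDPS pools at 10.79, 9.50, 8.12 and 9.53. The LDPR pools were at 8.58, 9.59, 7.61 and 9.63. SDPS pool 4 was highest and LDPR pool 3 lowest. LDPR pools 1 and 3 and LDPS pool 3 were below every SDPS pool, while LDPR pools 2 and 4 lay within the SDPS range, so the groups overlapped. In spot amplitude, not normalised, the probe ran from 119 in LDPR pool 3 to 2605 in LDPS pool 1. Means were 10.12 ± 0.73 in SDPS, 9.48 ± 1.09 in LDPS and 8.85 ± 0.96 in LDPR (log2 intensity, SD, n = 4 each).

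Much of this spread lay between arrays rather than between the pools that shared one. The mean UTS2 level of an array ran from 7.86, on the array of LDPS pool 3 and LDPR pool 3, to 10.53, for SDPS pool 1 with LDPS pool 1. This range of 2.66 was at percentile 99.6 of all tested probes, whose median range was 0.68. The array with the lowest mean was also the last to be quantified, per the file headers. Its means for POMC, AVP and CPE were 9.90, 12.20 and 11.02, not the lowest of any of these genes. An effect of the order was not tested. Within-array ratios do not carry the spread between arrays, and the fit uses ratios only.

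The fitted log2 fold change of UTS2 was -0.80 for LDPR against SDPS (SE 0.24, interval -1.34 to -0.26, limma adjusted p = 0.41), or 1.74-fold lower in LDPR. Both direct arrays had this direction, at -0.86 for SDPS pool 3 with LDPR pool 1 and -1.50 for SDPS pool 4 with LDPR pool 2. Against LDPS the fit gave LDPR a value of -0.59 (interval -1.13 to -0.05, limma adjusted p = 0.319). Here the direct arrays were split, at -0.51 for pool 3 of each group and 0.10 for pool 4 of each. For LDPS against SDPS it gave -0.21 (interval -0.75 to 0.33, limma adjusted p = 1), with direct arrays at 0.53 and -0.18. The test for any difference among the 3 groups gave UTS2 an adjusted p of 0.402 (limma moderated F test). In that test 0 of 4 members passed, against 0.0111% of all probes, and UTS2 and CPE had an unadjusted p under 0.05, which 10.7% of all probes had.

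The loop allows each comparison to be read along 2 routes, directly and through the remaining group. For UTS2 these differed. The direct arrays of LDPR against SDPS averaged -1.18, whereas the path through LDPS gave -0.03. Between LDPR and LDPS the direct mean was -0.21 and the path -1.36, and for LDPS against SDPS the direct mean was 0.18 and the path -0.98. The sum of direct ratios around the loop, which is 0 where the routes match, was 1.15 for UTS2 (SE 0.37, limma adjusted p = 0.999). UTS2 was the 1 member with an unadjusted p under 0.05 in this test, which 3.29% of all probes had. The same sum was -0.27 for POMC, -0.05 for AVP and 0.05 for CPE, with SEs of 0.23, 0.30 and 0.23. The pools on the routes differ, so spread between pools of a group and spread between arrays cannot be told apart in these sums.

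**Figure D2:**
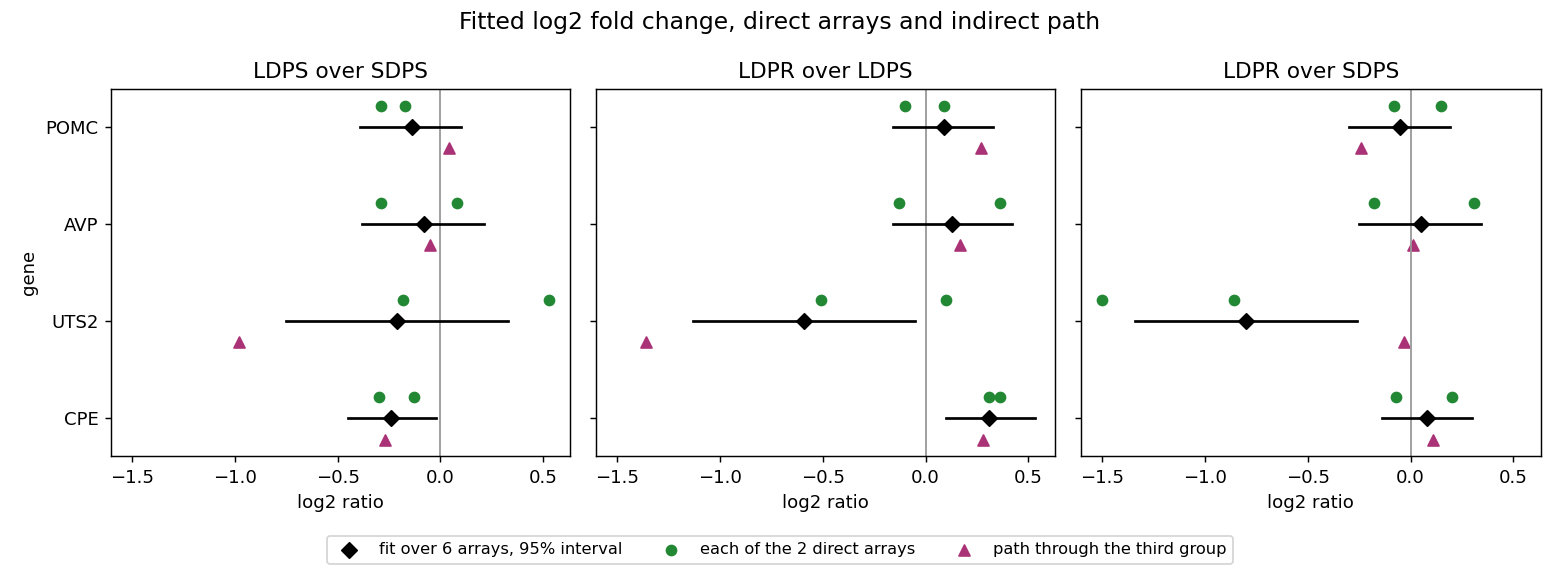
Log2 ratio (horizontal axis) of each gene in the 3 comparisons, as the fit over 6 arrays with its 95% interval (diamond and line), each of the 2 direct arrays (circles) and the path through the third group (triangle). For UTS2 in LDPR over SDPS the direct arrays are at -1.50 and -0.86 and the path at -0.03, while for CPE in LDPR over LDPS all lie between 0.28 and 0.36.

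The residual SD of UTS2, 0.690, was at percentile 99.5 of all tested probes, whose median was 0.18. Moderation draws such a variance toward that of other probes, and the SE of 0.24 above reflects this. With its own variance, an alternative added after the data were seen, the SE of UTS2 in LDPR against SDPS was 0.40 (adjusted p = 0.752, limma fit, not moderated), and the unadjusted p was no longer under 0.05.

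The size of the UTS2 value for LDPR against SDPS moved with the arrays used, and most with 1 of them. On the array of SDPS pool 4 and LDPR pool 2, which gave -1.50, the UTS2 spot had a QUALITY entry of 0, although its BlueFuse confidence score of 0.91 lay within the 0.61 to 0.92 of this probe on the other arrays. LDPR pool 2 is also the pool with fewer probes above empty spots, whose 95th percentile was highest in its channel. Without this array the log2 fold change for LDPR against SDPS was -0.41 (limma adjusted p = 0.925). It was -0.41 as well with all QUALITY 0 spots left out (limma adjusted p = 0.637, an alternative added after the data were seen). Fitted on the authors' deposited table, which has no UTS2 value for these 2 pools, it was -0.42 (limma adjusted p = 0.631). Without the array of LDPR pool 4 and LDPS pool 4 it was -1.07 (limma adjusted p = 0.0693). All 6 fits without 1 array had a negative value, and 4 of the 6 had an unadjusted p under 0.05. The fits on the deposited table and with QUALITY 0 spots left out did not.

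In the comparison of LDPR with LDPS, the UTS2 value without the array of LDPR pool 4 and LDPS pool 4 was -1.13 (limma adjusted p = 0.0904), and with SDPS pool 1 and LDPS pool 1 left out it was -0.39 (limma adjusted p = 0.439). The former was the only 1 of the 6 fits without 1 array with an unadjusted p under 0.05. On the deposited table the value was -0.39 (limma adjusted p = 0.471), with QUALITY 0 spots left out -0.40 (limma adjusted p = 0.476) and with variances not moderated -0.59 (limma fit, adjusted p = 0.632), each with an unadjusted p above 0.05. For LDPS against SDPS the sign was not kept. UTS2 was at 0.06 without the array of LDPR pool 4 and LDPS pool 4, at 0.18 from direct arrays only, and at -0.62 with SDPS pool 1 and LDPS pool 1 left out.

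All 4 measured pituitary markers had negative values beside UTS2 in both comparisons of LDPR. FSHB was at -0.73 against LDPS and -0.24 against SDPS, and PITX1 at -0.38 and -0.23. PRL was at -0.18 and -0.19, and GH at -0.12 and -0.12. For LDPS against SDPS, where UTS2 was at -0.21, FSHB and PITX1 had the opposite sign, at 0.50 and 0.14. PRL and GH were each at -0.01 there. Over the 12 pools the mean level of the pituitary markers had a Pearson correlation of 0.37 with UTS2. That of astrocyte and tanycyte markers also had 0.37, oligodendrocyte markers 0.34, blood markers 0.30, 5 measured neuron markers 0.07 and choroid plexus markers -0.17. Pools on 1 array share what sets it apart from other arrays, so these correlations are descriptions. The part of pituitary tissue in the UTS2 values was not tested.

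The related peptide gene UTS2B, called UTS2D on the array, had log2 fold changes of 0.10, -0.04 and 0.07 for LDPS against SDPS, LDPR against LDPS and LDPR against SDPS. The urotensin II receptor gene UTS2R is not analysed here. Of 12 other genes listed for urotensin, its signalling and the somatostatin receptors, 9 had a tested probe, and their medians were 0.01, -0.06 and -0.10. ROCK2, a kinase downstream of RhoA, had 0.53 for LDPR against SDPS (limma adjusted p = 0.41). This is the brightest of its 3 tested probes, and the others are not given here. With the brightest probe of each gene, ROCK2 was the only 1 of the 9 with an unadjusted p under 0.05 in any comparison. For LDPR against SDPS 9.37% of all probes had such a p, and 0 of the 9 passed after adjustment.

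For CPE, the SDPS pools were at 11.00, 11.60, 10.76 and 10.79 (log2 intensity). The LDPS pools were at 10.70, 11.46, 10.84 and 10.94, and the LDPR pools at 10.69, 10.98, 11.20 and 11.25. SDPS pool 2 and LDPS pool 2, which shared an array, were the highest of all 12, and the groups overlapped. Means were 11.04 ± 0.39 in SDPS, 10.98 ± 0.33 in LDPS and 11.03 ± 0.25 in LDPR (SD, n = 4 each).

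Within arrays, where differences between arrays cancel, CPE was more even than these levels. Both arrays that paired LDPS with SDPS had the LDPS pool lower, at -0.30 and -0.13, and both that paired LDPR with LDPS had the LDPR pool higher, at 0.36 and 0.31. Those of LDPR with SDPS were at -0.07 and 0.20. The fitted log2 fold change was 0.31 for LDPR against LDPS (SE 0.10, interval 0.10 to 0.53, 1.24-fold, limma adjusted p = 0.233). For LDPS against SDPS it was -0.24 (SE 0.10, interval -0.45 to -0.02, limma adjusted p = 1). LDPR and SDPS differed by 0.08 (interval -0.14 to 0.30), which did not pass.

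The direct and indirect routes gave like values for CPE, at -0.22 and -0.27 for LDPS against SDPS, 0.33 and 0.28 for LDPR against LDPS, and 0.06 and 0.11 for LDPR against SDPS. Its residual SD of 0.097 was at percentile 14.9, below that of most probes. The test for any difference among the groups gave CPE an adjusted p of 0.406 (limma moderated F test). Without 1 array, the LDPR against LDPS value stayed between 0.24 and 0.36. It was lowest without the array of LDPS pool 3 and LDPR pool 3, where its unadjusted p was no longer under 0.05 (limma adjusted p = 0.801). The same loss occurred with median centring, at 0.22 (limma adjusted p = 0.387), and from direct arrays only, at 0.33 (limma adjusted p = 0.997).

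**Figure D3:**
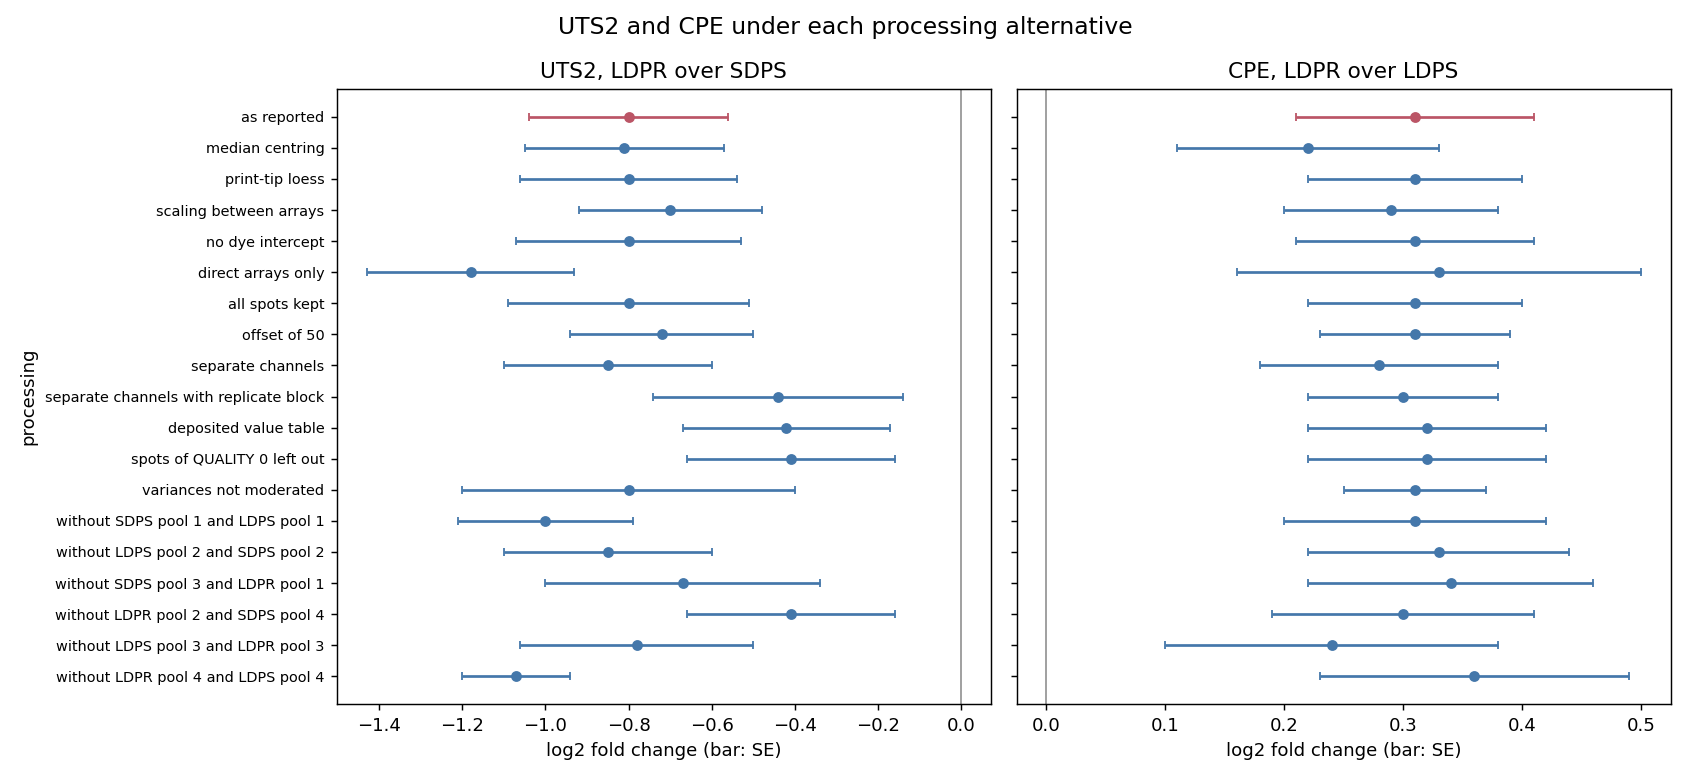
Log2 fold change with its SE (horizontal axis) of UTS2 for LDPR over SDPS and of CPE for LDPR over LDPS under each processing alternative (vertical axis), with the reported value in red. UTS2 moves between -1.18 and -0.41, and CPE stays between 0.22 and 0.36.

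Markers of astrocytes and tanycytes, choroid plexus and blood are given beside CPE for LDPS against SDPS and LDPR against LDPS. In both comparisons 0 of them passed after adjustment, the smallest limma adjusted p being 0.102 for the blood marker HBA1. Of the 6 measured astrocyte and tanycyte markers, 4 had the sign of CPE in both comparisons (SLC1A3, AQP4, GJA1 and VIM) and 2 had the opposite sign (SLC1A2 at 0.10 and -0.01, and S100B at 0.23 and -0.29). The median of the 6 measured was -0.26 for LDPS against SDPS, with 4 of 6 lower at an unadjusted p under 0.05 (1.31% of all probes were lower at this level). It was 0.19 for LDPR against LDPS, with 3 of 6 higher, where 4.96% of all probes were, and 1 lower. Their mean log2 level lay between 8.92 and 9.38 in SDPS, between 8.58 and 9.31 in LDPS and between 8.74 and 9.20 in LDPR, and all 6 were above empty spots in 12 of 12 pools. The choroid plexus marker TTR had the sign of CPE, at -0.76 for LDPS against SDPS and 2.33 for LDPR against LDPS (SE 0.60 each, limma adjusted p = 1 and adjusted p = 0.18), while FOLR1 was at -0.03 and 0.07. All 3 measured blood markers had the opposite sign to CPE, with HBG2 at 0.71 and -0.80, HBA1 at 0.66 and -0.99 and HBZ at 0.23 and -0.19. The part of these cells in the CPE values was not tested.

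CPE acts after the prohormone convertases, and several convertases and 1 related carboxypeptidase were measured. PCSK2, a convertase of neuroendocrine granules, had log2 fold changes of -0.03, 0.08 and 0.05 for LDPS against SDPS, LDPR against LDPS and LDPR against SDPS. FURIN, the convertase of the trans-Golgi network, had -0.08, 0.08 and 0.00, and CPD, a carboxypeptidase of the same compartment, had 0.10, -0.19 and -0.09. The values of these 3 lay within 2 SE of 0. The convertase PCSK5 had -0.08, 0.12 and 0.03 by its brightest probe, and its 4 tested probes ran from -0.15 to 0.12 for LDPR against LDPS. PCSK6 had 0.13, -0.20 and -0.07 (SE 0.09 each), the value for LDPR against LDPS being opposite in sign to that of CPE (limma adjusted p = 0.387), and its second tested probe, RIGG13757, had 0.01, 0.07 and 0.08. PCSK5 and PCSK6 were named after their values were seen. PCSK1, SCG5, PAM and CHGA are not analysed here.

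Of 39 other genes listed for prohormone processing and the secretory granule, 16 had a tested probe. For LDPS against SDPS, 6 were positive and 10 negative, with a median of -0.04. For LDPR against LDPS, 12 were positive and 4 negative, with a median of 0.08, and for LDPR against SDPS 10 were positive and 6 negative, with a median of 0.03. Of all probes, 46.7%, 48.3% and 46% were positive in these comparisons. In each comparison 0 of 16 passed after adjustment.

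RAB3B, a small GTPase of secretory vesicles, had values of the same sign as CPE, at -0.43 for LDPS against SDPS (limma adjusted p = 1) and 0.53 for LDPR against LDPS (limma adjusted p = 0.153). SCGN, a calcium-binding protein of neuroendocrine cells, had -0.27 for LDPS against SDPS (limma adjusted p = 1). The granule protein gene CHGB had 0.15, 0.11 and 0.26, the last with limma adjusted p = 0.497. The lysosomal protease gene CTSB had -0.23 for LDPR against SDPS (limma adjusted p = 0.529). These 4 were the only ones of the 16 with an unadjusted p under 0.05 in any comparison. At this level 2 of 16 were lower for LDPS against SDPS and 1 was higher for LDPR against LDPS. For LDPR against SDPS 1 was higher and 1 lower. Of all probes, 1.31% were lower at this level for LDPS against SDPS and 4.96% were higher for LDPR against LDPS. For LDPR against SDPS 3.48% were higher and 5.89% lower. In both directions together, 4.33%, 13.9% and 9.37% of all probes had such a p in these comparisons. The array also holds 2 probes described as similar to secretogranin II, a granule protein, which were singled out after their values were seen. RIGG02489 had -0.25 for LDPS against SDPS and 0.26 for LDPR against LDPS, and RIGG08181 had -0.27 and 0.48 (limma adjusted p = 0.316 and 0.167 for LDPR against LDPS).

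**Figure D4:**
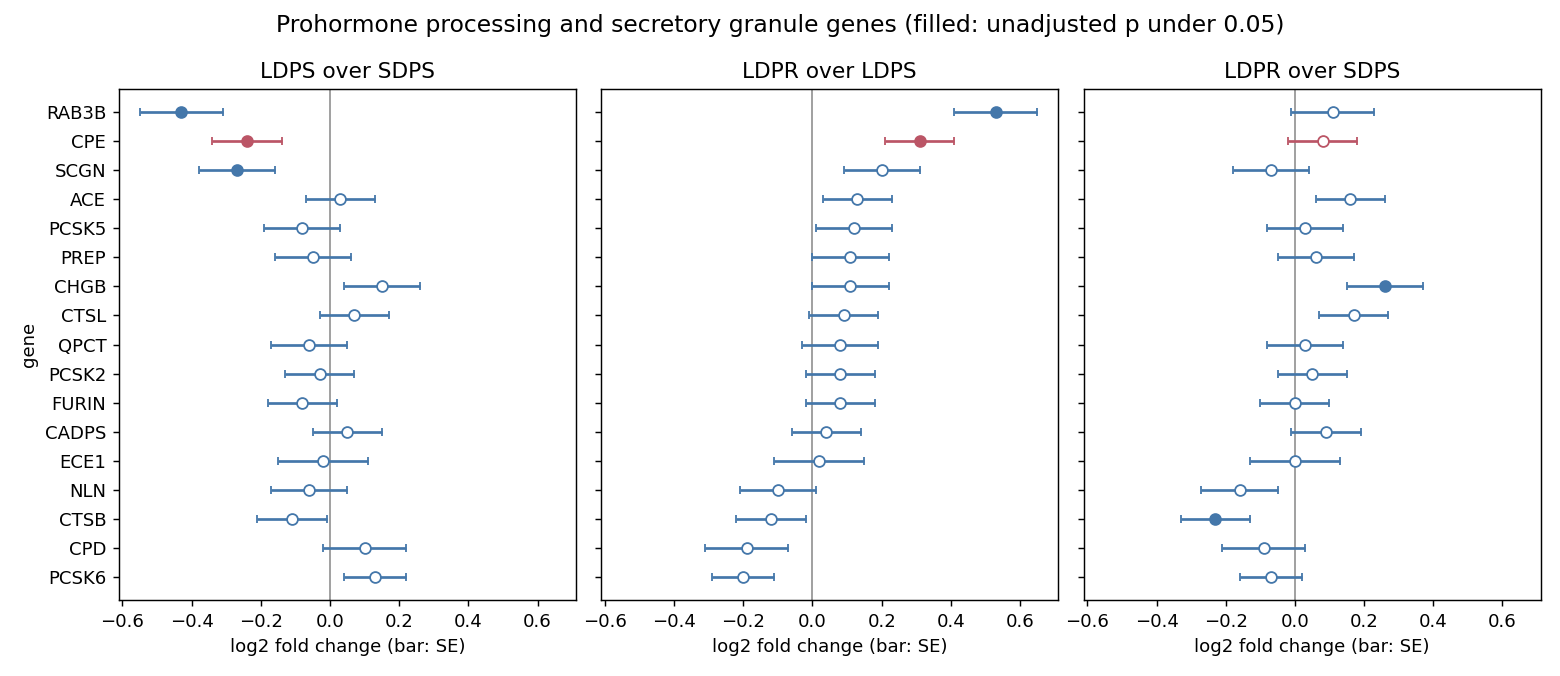
Log2 fold change with its SE (horizontal axis) of CPE (red) and 16 other prohormone processing and granule genes (vertical axis) in the 3 comparisons, filled where the unadjusted p was under 0.05. In LDPR over LDPS the highest values are those of RAB3B (0.53) and CPE (0.31), and 0 genes pass after adjustment.

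Correlations between the members differed by measure. Over the 12 pools the Pearson correlations between their levels ran from -0.46, for AVP and UTS2, to 0.22, for POMC and UTS2. Over the 6 within-array ratios, those among POMC, AVP and CPE were all positive (0.59 for POMC and CPE, 0.45 for AVP and CPE and 0.37 for POMC and AVP), and UTS2 had -0.43 with each of the 3. These are descriptions, since pools on an array share what sets it apart from other arrays and the ratios share their groups.

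The genes most like each member were taken from 4942 genes by the Pearson correlation of levels over 12 pools. For POMC these were SDK2 (0.97), CCDC69 (0.95) and MOV10 (0.95), and their correlations over the 6 within-array ratios were 0.60, 0.78 and 0.77. For AVP they were MITF (0.85), RASD1 (0.82) and ESPN (0.81), with 0.71, 0.39 and 0.67 over the ratios. For UTS2 they included KPNA2 (0.93) and FLJ10815 (0.91), each with 0.99 over the ratios. KPNA2, a nuclear import receptor, had log2 fold changes of -0.11 for LDPS against SDPS, -0.51 for LDPR against LDPS and -0.62 for LDPR against SDPS. In this order FLJ10815 had -0.17, -0.38 and -0.55, and UTS2 had -0.21, -0.59 and -0.80. For CPE they were RCP9 (0.96), SBNO1 (0.96) and ZYG11B (0.95), with 0.79, 0.93 and 0.96 over the ratios. ZYG11B had -0.16, 0.25 and 0.10, beside -0.24, 0.31 and 0.08 for CPE. Likeness was chosen from many genes, so high values occur by selection. The fold changes come from the same pools, so their likeness to those of the member follows in part from this choice.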

How the data were processed

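The deposited intensity of a spot is the authors' BlueFuse for Microarrays estimate (version 3.6, build 7145, per the file headers), 1 amplitude per spot and channel at 532 nm (Alexa 555) and 635 nm (Alexa 647). Spots whose deposited confidence score was under 0.1 were treated as missing, and 0 members lost a spot. The authors' deposited log2 value table (20478 probes, column medians from 7.435 to 7.578) lay closer to the sample's own channel in 12 of 12 columns, and no label states how it was normalised. All 12054 probe spots with a QUALITY entry of 0 have no value in it, and they make up 77.3% of its 15596 missing probe spots. The 2 files of an array were identical, so each array was read once.

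Within-array log2 ratios of the 20460 chicken probes were normalised by loess (span 0.3, 4 iterations) and then modelled in limma 3.58.1 (R 4.3.3) with 3 groups and a dye intercept over 6 arrays. Tests took the 18012 probes measured on 5 or 6 arrays, with 2 to 3 residual and 6.64 prior degrees of freedom. Levels are log2 intensities after loess and Aquantile scaling. The scripts were tested on simulated data. The number of arrays limits the precision; the median SE was 0.11. Alternatives changed the centring, print-tip loess, scaling, dye intercept, direct arrays, spot filter, offset of 50, separate channels, the deposited table and each array in turn.

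The members and gene lists were chosen with earlier results of these data known. Named genes were all members, a set list of convertases, receptors and peptides, and per list and comparison up to 4 genes with the smallest unadjusted p under 0.05, plus for each member the 3 genes of highest correlation. A gene that this rule chose is left out of the text. Where a gene had several tested probes, the brightest stood for it. Of the pools that share a replicate number, 4 pairs shared an array and their deviations correlated at 0.337 to 0.721. The other 8 pairs ran from -0.44 to 0.267, with 2 over 0.1. These deviations carry differences between arrays, so they cannot decide whether the numbers pair the samples. No label states such a pairing, and the reported fit has no replicate block.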

Additional observations from a re-analysis of the deposited data

How the results depend on the processing

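Of the 12 member log2 fold changes, 0 passed at an adjusted p under 0.05 as reported, and 1 passed under 1 alternative. CPE in LDPR against LDPS was at 0.30 with limma adjusted p = 0.0497 in the separate-channel fit with replicate block, which gave 1 called member there. No label states that replicate numbers pair these pools, and whether they do was not settled. The block changed no other member call at an adjusted p under 0.05. Over the alternatives, 199 values kept their direction and side of the threshold. As 0 passed as reported, the side of the threshold does not measure how far a value moved. All UTS2 values for LDPR against SDPS are among these 199, though they ran from -1.18 to -0.41. Another 10 values changed sign, all of small or split values. AVP was at 0.00 for LDPR against LDPS and -0.01 for LDPR against SDPS under median centring. From direct arrays only, POMC was at 0.00 for LDPR against LDPS and 0.04 for LDPR against SDPS, and UTS2 at 0.18 for LDPS against SDPS. With 1 array left out, AVP ran from -0.06 to 0.15 for LDPR against SDPS and from -0.26 to 0.12 for LDPS against SDPS. In the same fits POMC ran from -0.17 to 0.02 for LDPR against SDPS, and UTS2 from -0.62 to 0.06 for LDPS against SDPS. CPE in LDPS against SDPS ran from -0.26 to -0.20, with an unadjusted p under 0.05 in 2 of these 6 fits. In the separate-channel fit with replicate block, UTS2 was at -0.44 for LDPR against SDPS and -0.40 for LDPR against LDPS. Its unadjusted p was no longer under 0.05 in either. POMC was at -0.22 for LDPR against SDPS and -0.23 for LDPS against SDPS in that fit, the latter with an unadjusted p under 0.05. AVP has no value in the deposited table fit or with QUALITY 0 spots left out, where under 5 of its arrays remain. Causes of these shifts were not tested.

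Counts over all probes moved more. For LDPR against LDPS, the 3 probes called became 31 with scaling between arrays, 17 with print-tip loess, 648 with separate channels and 1323 with the replicate block. It was 0 with variances not moderated, with all spots kept, from direct arrays alone and with no dye intercept, and ran from 0 to 6 with 1 array left out. At unadjusted p the 2511 became 1246 with no dye intercept, 398 from direct arrays alone and 4258 with the block, and ran from 1191 to 2616 with 1 array left out. For LDPR against SDPS, 0 became 1 with scaling, 48 with separate channels and 23 with the block, and ran from 0 to 4 with 1 array left out. At unadjusted p the 1687 became 614 with no dye intercept and 199 from direct arrays alone, and ran from 1023 to 2870. For LDPS against SDPS, 0 became 1 with scaling, print-tip loess, an offset of 50 and in the deposited table, 5 with separate channels and 43 with the block. At unadjusted p the 780 became 1354 with scaling, 364 with no dye intercept, 448 from direct arrays alone, 1183 with separate channels and 2055 with the block, and ran from 461 to 1691.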
